A study of Mus musculus with 24 samples.

Results

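TO versus OT in differentiation medium compared 2 transfected derivatives of the mouse neuroblastoma line N1E-115, and covered 8 of the 24 samples of the study. Its members were the 4 samples titled as differentiated TO cells (TO-d) and the 4 titled as differentiated OT cells (OT-d), chosen by those titles and not by any measured value. TO-d cells carried a fusion of the N-terminal of transcobalamin (TCN2) to oleosin, which per the design text binds cobalamin (Cbl) with high affinity. OT-d cells carried the C-terminal fusion of the same proteins, for which no Cbl binding was detected. Both lines were kept in the same differentiation medium, 2.5% fetal calf serum (FCS) and 1.25% dimethyl sulfoxide (DMSO) in DMEM with glucose, with no other agent named in the labels, after replating the day before. Non-transfected N1E-115 cells in that medium (WT-d, 4 samples) are given as values beside them, and the remaining samples were TO, OT and WT cells in proliferation medium with 10% FCS (TO-p, OT-p and WT-p). The promoter of the constructs, the number of clones per line and whether replicates were separate cultures are not given in the labels, so p-values here speak only of the spread among these samples, which may be technical.

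Cobalamin, or vitamin B12, reaches cells bound to transcobalamin. Inside, it serves methionine synthase, which makes methionine from homocysteine and so feeds cellular methylation, and the mitochondrial methylmalonyl-CoA mutase. Oleosin is a plant protein that anchors in lipid bodies and membranes. The series sets the fusions against each other as a cell model of disturbed cobalamin metabolism, with the mRNA-binding protein HuR as its subject. N1E-115 is a sympathetic neuroblastoma line that makes catecholamine enzymes and extends neurites when serum is lowered and DMSO is added.

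RNA was measured on 2-colour Agilent arrays, 12 in all on 3 slides. Each group had replicates 1 and 2 in Cy5 and replicates 3 and 4 in Cy3. TO-d lay on slides 1, 2, 2 and 3 in replicate order, and OT-d on slides 2, 2, 3 and 3. TO-d replicates 2 and 3 shared an array, and no array held TO-d beside OT-d. Median raw signals were 66 to 163.5 in TO-d samples and 69 to 133 in OT-d samples, and 55.0 to 63.4% and 55.8 to 65.7% of their spots were well above background. The number of arrays limits the precision of every value. Levels below are normalized log2 intensities of the sample's own dye, and differences are fitted log2 values, TO-d minus OT-d, with their standard error (SE); the fit takes in the dye and the shared arrays, so a difference can depart from that of the group means. A gene was called at an adjusted p under 0.05 in limma.

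As a check of the labelled cell type, all 17 sympathetic neuroblast markers were well above background in all 8 samples, with a summed linear intensity of 429019.3 to 676917.3 in TO-d samples and 551089.1 to 832233.2 in OT-d samples. Of the 18 glial markers 9 were tested and 7 were well above background in all 8 samples, with sums of 2873.6 to 3181.5 in TO-d samples and 2857.2 to 3213.8 in OT-d samples. Of the 17 blood and endothelial markers 6 were tested and 5 well above background, with sums of 2626.6 to 2993.2 in TO-d samples and 5223.5 to 6489.3 in OT-d samples, a gap that followed Vwf, von Willebrand factor, at 10.61, 10.72, 10.57 and 10.50 in TO-d samples, against 12.17, 12.11, 12.41 and 12.06 in OT-d samples. Of the 14 fibroblast and smooth muscle markers 9 were tested and 5 well above background, with sums of 7954.7 to 9096.8 in TO-d samples and 8105.8 to 9156.3 in OT-d samples. The sums compare samples within a list, not lists with each other, and the markers left untested did not pass the filter on dim genes. The part of these markers in the results below was not tested. In RNA from whole cultures, fewer cells of a kind and less RNA per cell cannot be told apart.

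Of 16242 genes tested, 6477 were called (39.9%): 3082 were higher (19.0%) and 3395 lower (20.9%) in TO-d cells relative to OT-d cells. Over 2-fold, 267 were higher (1.64%) and 251 lower (1.55%), and over 4-fold 27 were higher and 33 lower. All TO-d samples lay above all 4 OT-d samples in 3170 genes (19.5%) and below them in 3622 (22.3%). The median difference over all genes tested was -0.02, and the median SD of a gene over 4 samples was 0.105 in TO-d and 0.118 in OT-d. Most called differences were thus under 2-fold. For the gene lists below, 19.0% higher and 20.9% lower are the shares to set beside the counts of called members. A list near those shares held no more calls than genes in general. With loess alone and no scaling between arrays, the split of calls turned to 3440 higher and 1662 lower, while the median difference over all genes was then 0.06.

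**Figure D1:**
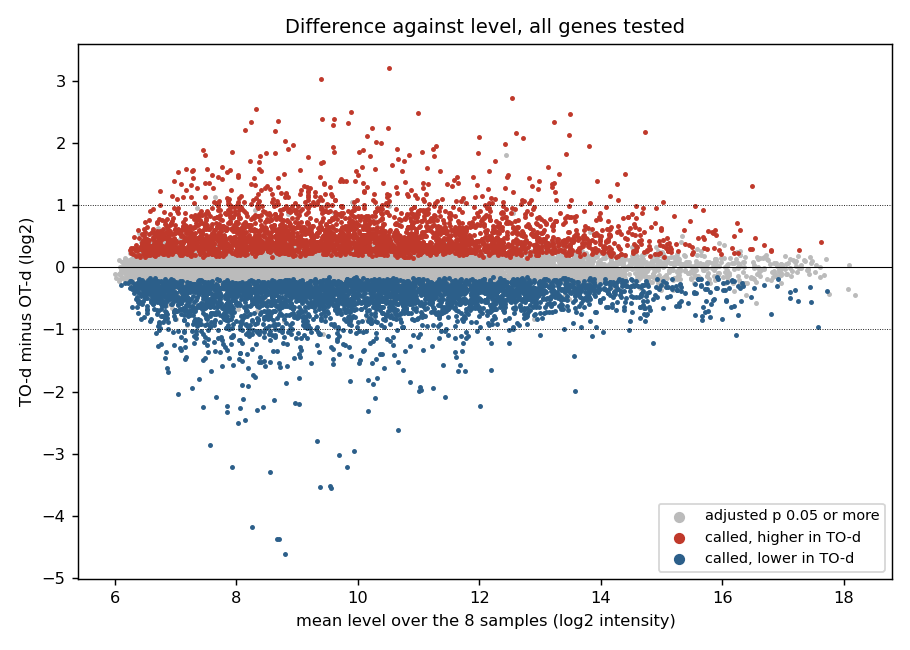
Fitted difference TO-d minus OT-d (log2) against the mean level over the 8 samples (log2 intensity), 1 point per gene tested. Red points are the 3082 genes called higher in TO-d, blue points the 3395 called lower, grey points the rest, and the dotted lines mark 2-fold; the lower side reaches -4.63 (Gpm6b) and the higher side 3.21 (Osgin1).

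Of 20 genes of cobalamin uptake and handling tested, 7 were higher and 0 lower, with a median of 0.12. Tcn2, transcobalamin itself, had levels of 9.47, 9.60, 9.73 and 9.41 in TO-d samples, against 9.00, 9.09, 9.07 and 9.09 in OT-d samples. The groups did not overlap (log2 0.41, SE 0.11, adjusted p = 0.00317), and the labels do not say whether the probe also reads the fusion transcript. Mtr, methionine synthase, had levels of 8.18, 8.10, 8.20 and 8.54 in TO-d samples, against 7.33, 7.57, 7.72 and 7.74 in OT-d samples (log2 0.63, adjusted p = 1.98e-05). The Mtr call ended when the local background was taken as deposited (log2 0.52, adjusted p = 0.0694). Mmut, methylmalonyl-CoA mutase, was at 12.33, 12.19, 12.07 and 12.15 in TO-d samples, against 11.56, 11.48, 11.45 and 11.40 in OT-d samples (log2 0.72, adjusted p = 1.41e-08), and Pcca, a subunit of the propionyl-CoA carboxylase that acts before it, at 8.91, 9.02, 8.93 and 8.89 in TO-d samples, against 8.19, 8.31, 8.15 and 8.31 in OT-d samples (log2 0.66, adjusted p = 5.43e-08). Every TO-d sample was above every OT-d sample in these 4 genes. Abcd4, which serves the release of cobalamin from lysosomes, was higher as well (log2 0.67, adjusted p = 2.11e-04). Cd320, through which cells take up transcobalamin with its cargo, was higher by 0.33 (adjusted p = 0.0205), a call that ended without OT-d replicate 3 (log2 0.24, adjusted p = 0.0863) or TO-d replicate 1 (log2 0.32, adjusted p = 0.0611). Mmachc, which processes cobalamin in the cytosol, had levels of 9.18, 9.21, 9.38 and 9.25 in TO-d samples, against 9.41, 9.32, 9.51 and 9.35 in OT-d samples, with overlapping groups (log2 -0.04, interval -0.29 to 0.21, adjusted p = 0.849).

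Elavl1, which encodes HuR, had levels of 12.17, 12.03, 12.00 and 12.00 in TO-d samples, against 12.28, 12.28, 12.09 and 12.12 in OT-d samples. The groups overlapped and the gene was not called (log2 -0.06, 95% interval -0.25 to 0.12, adjusted p = 0.617), though its 3 probes gave -0.76 to 0.33. Ppp2ca, the catalytic subunit of the phosphatase PP2A, was not called either (log2 -0.08, interval -0.26 to 0.10, adjusted p = 0.520). Sirt1, a deacetylase, had levels of 8.83, 8.68, 8.78 and 8.55 in TO-d samples, against 9.59, 9.59, 9.48 and 9.45 in OT-d samples, with no overlap (log2 -0.78, SE 0.10, adjusted p = 1.45e-06). Of 40 arginine methyltransferase, PP2A and sirtuin genes tested, 8 were higher and 16 lower, and under loess alone 5 were lower. Of 50 DNA and histone methylation enzymes, 1 was higher (2.00%) and 7 lower (14.0%). Of 70 genes of mRNA export and the nuclear pore, 14 were higher (20.0%) and 9 lower (12.9%), against 19.0% and 20.9% of all genes tested. Under loess alone 21 of them were higher and 1 lower.

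The largest increase was in Osgin1, an oxidative stress-induced growth inhibitor. Its levels were 12.01, 12.18, 12.52 and 12.07 in TO-d samples, against 8.95, 8.72, 8.77 and 8.88 in OT-d samples, 9.25-fold higher in TO-d (log2 3.21, SE 0.14, adjusted p = 4.62e-14). WT-d averaged 11.41 ± 0.10 (SD, n = 4), so OT-d held the low values. The Osgin1 probe lies at chr8:122332154-122332213 on the mm8 build, and the gene's 3 probes gave 0.88 to 3.21. Dpyd, the first enzyme of pyrimidine breakdown, was at 11.11, 10.80, 10.79 and 11.01 in TO-d samples, against 7.97, 7.91, 7.77 and 7.75 in OT-d samples (8.24-fold, adjusted p = 1.24e-14), with WT-d at 7.24 ± 0.12. In Dpyd the TO-d samples stood apart from both other lines. Pcolce, an enhancer of procollagen processing, was at 13.82, 13.89, 14.04 and 13.85 in TO-d samples, against 11.21, 11.21, 11.19 and 11.11 in OT-d samples (6.65-fold, adjusted p = 1.84e-18), with WT-d at 13.95 ± 0.12. Tgfbi, a secreted matrix protein induced by TGF-beta, was at 12.21, 12.08, 12.46 and 12.23 in TO-d samples, against 9.93, 9.83, 9.70 and 9.44 in OT-d samples (5.64-fold, adjusted p = 2.77e-12). Pcolce and Tgfbi were low in OT-d and near WT-d in TO-d. Kif21b, a kinesin, was 5.66-fold higher by its brightest probe, and its 3 probes gave 0.20 to 2.50. Znhit6, a snoRNP assembly factor, was at 14.41, 14.38, 14.30 and 14.37 in TO-d samples, against 12.25, 12.13, 12.04 and 12.00 in OT-d samples (5.09-fold, adjusted p = 3.72e-15), with WT-d at 11.70 ± 0.17. Ptpn18, a tyrosine phosphatase, was 4.76-fold higher, F11r, the junctional adhesion molecule JAM-A, 4.75-fold, Niban1, a stress-induced gene, 5.06-fold, and Tmem63a, a mechanosensitive channel, 4.92-fold. The other 5 of the 15 largest increases (Trib3, H2-M3, Isg15, Ifit1 and Rtp4) are described with their groups below.

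The largest decrease was in Gpm6b, a membrane proteolipid of neurons and glia. Its levels were 6.31, 6.36, 6.80 and 6.53 in TO-d samples, against 11.36, 11.12, 10.91 and 11.02 in OT-d samples, 24.7-fold lower in TO-d (log2 -4.63, SE 0.15, adjusted p = 4.25e-16). WT-d averaged 6.87 ± 0.25, so the high values were those of OT-d. Its probe lies at chrX:161732904-161732963 on mm8. Tmem130, a membrane protein, was at 6.36, 6.64, 6.47 and 6.37 in TO-d samples, against 11.17, 10.95, 10.91 and 10.79 in OT-d samples (20.8-fold lower, adjusted p = 3.55e-14), with WT-d at 11.34 ± 0.17. Pnrc2, which links mRNA decapping to nonsense-mediated decay, was at 6.17, 6.55, 6.71 and 6.51 in TO-d samples, against 10.98, 10.83, 10.79 and 10.87 in OT-d samples (20.7-fold lower, adjusted p = 4.16e-16), with WT-d at 10.30 ± 0.24. Tmem130 and Pnrc2 were low only in TO-d among the 3 lines in this medium by their means. No p-value for the difference from WT-d is given here. Tmsb4x, thymosin beta 4, which sequesters actin monomers, was at 7.82, 7.92, 7.62 and 7.78 in TO-d samples, against 11.59, 11.28, 11.17 and 11.24 in OT-d samples (11.7-fold lower, adjusted p = 1.84e-18). Tpm2, a tropomyosin, was at 8.15, 8.18, 8.39 and 8.13 in TO-d samples, against 11.10, 11.14, 11.14 and 11.34 in OT-d samples (8.11-fold lower, adjusted p = 5.77e-18). In both actin-binding genes the groups lay far apart, with WT-d between them at 9.90 ± 0.09 and 10.40 ± 0.22. Wnt2, a Wnt ligand, was at 7.64, 7.85, 7.96 and 7.57 in TO-d samples, against 11.45, 11.32, 11.30 and 11.26 in OT-d samples (11.5-fold lower, adjusted p = 8.81e-18). Agtr2, the type 2 angiotensin receptor, was at 7.34, 7.52, 7.34 and 7.26 in TO-d samples, against 11.57, 11.43, 11.23 and 11.33 in OT-d samples (11.6-fold lower, adjusted p = 1.05e-07), where the fit over all 24 samples gave a log2 difference of -3.53 (SE 0.38) and the plain means were 7.37 in TO-d and 11.39 in OT-d. Ddc, the aromatic amino acid decarboxylase that makes dopamine, was at 8.32, 8.32, 7.90 and 8.18 in TO-d samples, against 11.22, 11.53, 11.58 and 11.47 in OT-d samples (9.30-fold lower, adjusted p = 4.25e-16), and its 2 probes gave -3.22 to -2.07. The WT-d mean of Ddc was 8.29 ± 0.15, close to that of TO-d. Samsn1, a lymphoid adaptor, was 9.88-fold lower, Arhgap25, a GTPase-activating protein, 9.33-fold, and Ssbp4, a DNA-binding cofactor, 7.78-fold. Tafa1, a secreted neuronal peptide, was 6.93-fold lower, where its 3 probes gave -2.79 to -1.22, and Ccdc184 6.13-fold lower. Several of these levels in TO-d were near background: 3 of 4 TO-d samples were well above it for Gpm6b, Pnrc2 and Samsn1, 2 for Tmem130 and 1 for Arhgap25. Their size depends on the background step, and Gpm6b was lower by log2 -5.48 with an offset of 10 and -6.94 with the scanner's processed signal. Other probes of Gpm6b were dim, and the mean over its probes gave log2 -1.54.

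**Figure D2:**
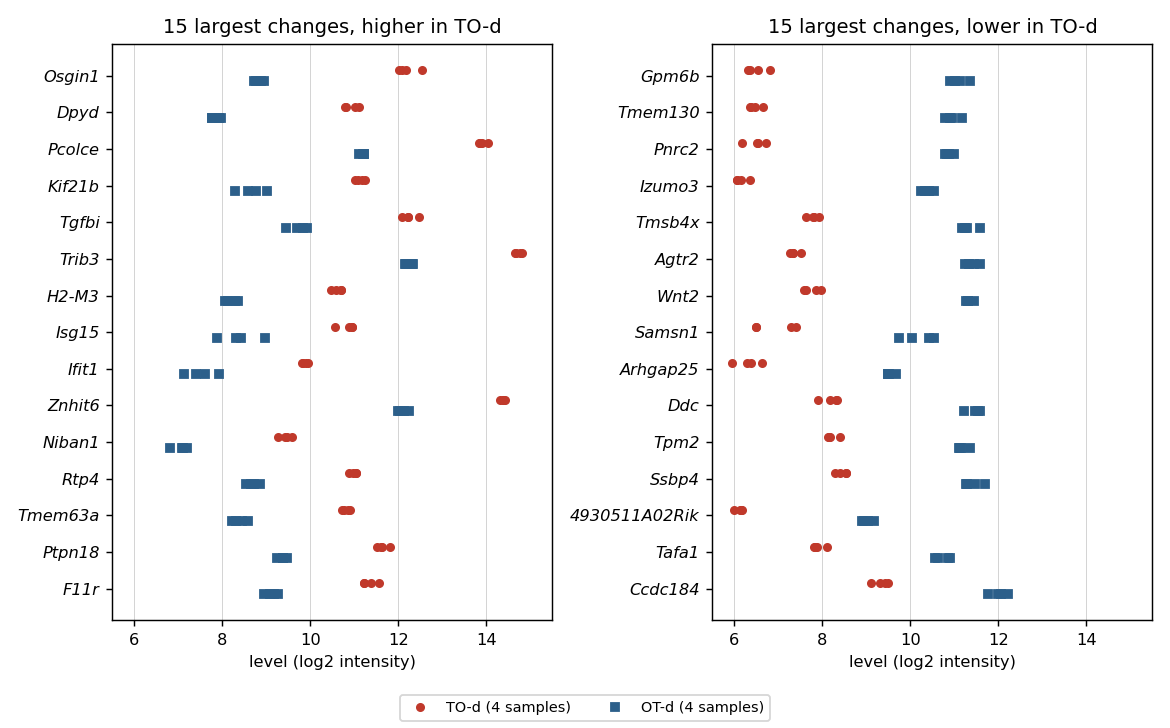
Level (log2 intensity) in each of the 4 TO-d samples (red circles) and 4 OT-d samples (blue squares) for the 15 largest increases (left) and 15 largest decreases (right). No gene's groups overlap, as the rule that chose the genes required. Samsn1 has the widest spread among the TO-d samples.

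Some genes were well above background in all 4 samples of TO-d or OT-d and in no sample of the other, whatever their level in WT-d. For these, at least marks a lower bound on the ratio of the plain group means, which carries no sampling error. Izumo3, a sperm membrane gene, was well above background in every OT-d sample and in no TO-d sample, at least 18.3-fold lower in TO-d (measured means 6.15 in TO-d samples against 10.38 in OT-d samples, adjusted p = 5.77e-18), and WT-d averaged 6.23 ± 0.29. The unnamed transcript 4930511A02Rik was at least 7.06-fold lower (means 6.11 in TO-d samples against 9.01 in OT-d samples, adjusted p = 8.36e-16). Lrrc4c, a synaptic adhesion protein that binds netrin-G1, was at least 3.86-fold lower (adjusted p = 1.09e-10). Nlrp14, a germ-cell gene, was at least 3.06-fold lower (adjusted p = 1.53e-10) and Ecrg4, a secreted peptide precursor, at least 2.93-fold (adjusted p = 4.57e-12). In the order Lrrc4c, Nlrp14 and Ecrg4, WT-d averaged 7.08, 6.86 and 7.56, above the TO-d means of 5.99, 6.01 and 6.01. The OT-d means were 8.10, 7.76 and 7.69. In the other direction, Dhx58, an RNA sensor of the interferon response, was at least 2.87-fold higher in TO-d (means 7.81 in TO-d samples against 6.27 in OT-d samples, adjusted p = 3.78e-10). Cd52, a small membrane glycoprotein, was at least 2.82-fold higher (adjusted p = 1.66e-09), and the receptor Gpr160 at least 2.37-fold (adjusted p = 1.72e-12). Slc7a11, the cystine transporter, was at least 1.92-fold higher (adjusted p = 3.54e-09), and Cyp2j6, a cytochrome P450, at least 1.94-fold (adjusted p = 6.59e-09). The bound sets the mean of the bright group against the lowest level well above background in each dim sample, or the dim probe's own level where that is higher. It is no bound on the fitted fold, which was below it in Cd52 (2.64), Gpr160 (2.36), Cyp2j6 (1.89) and Izumo3 (18.2).

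Among the genes with the brightest probes past 2-fold, Chchd10, a mitochondrial intermembrane protein, was at 17.40, 17.20, 17.01 and 16.85 in TO-d samples, against 15.92, 16.00, 15.80 and 15.74 in OT-d samples (log2 1.31, adjusted p = 5.39e-09). Mrps28, a mitochondrial ribosomal protein, was at 15.90, 15.90, 15.80 and 15.54 in TO-d samples, against 13.59, 13.62, 13.74 and 13.71 in OT-d samples (4.52-fold, adjusted p = 1.48e-13), with WT-d at 13.77 ± 0.14. Both probes read far above background in all 8 samples, and the groups were apart, as the rule that chose the brightest genes required. Eif4ebp1, a repressor of cap-dependent translation, was 2.54-fold higher, Nrp2, a semaphorin receptor, 2.63-fold, and Lgmn, a lysosomal protease, 2.12-fold with OT-d replicate 1 left out. On the lower side, Maged2, an X-linked gene, was at 12.27, 12.70, 12.89 and 12.58 in TO-d samples, against 14.21, 14.49, 14.67 and 14.80 in OT-d samples (3.96-fold lower, adjusted p = 4.67e-13), and Tubb3, neuronal class III beta-tubulin, at 13.46, 13.40, 13.52 and 13.59 in TO-d samples, against 14.45, 14.55, 14.59 and 14.67 in OT-d samples (2.06-fold lower, adjusted p = 3.59e-10). WT-d averaged 12.78 ± 0.13 for Maged2 and 13.60 ± 0.14 for Tubb3, closer to TO-d than to OT-d in both. Nos1, neuronal nitric oxide synthase, was 2.34-fold lower, Bnip3, a hypoxia-induced mitophagy receptor, 2.69-fold, S100a13 2.01-fold, and Eif4g3, a translation initiation scaffold, 2.12-fold.

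Genes of the integrated stress response were higher in TO-d. In this pathway, kinases that sense amino acid shortage, unfolded protein, haem loss or viral RNA phosphorylate the initiation factor eIF2 alpha, which lowers general translation and raises translation of Atf4, a transcription factor for amino acid supply and stress genes. Of 19 transcription factors and regulators tested, 12 were higher and 1 lower, with 6 over 2-fold higher and a median of 0.83. Relative to the OT-d mean, their median was 0.75, 0.90, 1.05 and 0.79 in the TO-d samples and 0.06, -0.02, -0.04 and 0.02 in the OT-d samples. Of 24 effectors and secreted signals, 18 were higher and 2 lower, with a median of 0.64. Every TO-d sample was above every OT-d sample in the median of either list. In WT-d samples the median was 0.30, 0.35, 0.51 and 0.35 for the regulators and 0.37, 0.47, 0.29 and 0.38 for the effectors. WT-d thus lay between the other lines in both. For proliferation medium the median differences, TO less OT, were 0.535 and 0.577.

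Trib3, a pseudokinase that inhibits Akt and Atf4, was at 14.68, 14.65, 14.82 and 14.76 in TO-d samples, against 12.31, 12.17, 12.16 and 12.33 in OT-d samples (5.54-fold, adjusted p = 3.73e-13), with its probe at chr2:152029060-152029119 on mm8. Atf4 was at 12.85, 13.01, 13.22 and 13.20 in TO-d samples, against 11.88, 12.02, 12.21 and 12.28 in OT-d samples (log2 0.94, adjusted p = 3.79e-08) and Ddit3, the factor CHOP, at 12.47, 12.78, 12.75 and 12.64 in TO-d samples, against 11.37, 11.50, 11.39 and 11.44 in OT-d samples (log2 1.16, adjusted p = 1.64e-07). The groups did not overlap in these 3 genes. WT-d averaged 13.91 ± 0.28 for Trib3, 12.32 ± 0.15 for Atf4 and 12.57 ± 0.13 for Ddit3. The Ddit3 mean was near that of TO-d, and the Atf4 mean nearer to that of OT-d. Nupr1, a stress-induced chromatin protein, was higher by 1.85 (adjusted p = 6.52e-14) and Cebpb, a bZIP factor, by 1.36 (adjusted p = 6.66e-10). Ppp1r15a, the phosphatase subunit GADD34 that reverses eIF2 alpha phosphorylation, was higher by 1.15 (adjusted p = 2.99e-09), and Atf5 by 0.95 (adjusted p = 5.07e-06). WT-d averaged 12.95 for Nupr1 and 14.07 for Cebpb, near their TO-d means of 12.90 and 13.89. It averaged 9.64 for Ppp1r15a, between the lines, and 14.23 for Atf5, below the OT-d mean of 14.44. Atf3, another factor of the pathway, was at 9.90, 10.16, 10.23 and 9.97 in TO-d samples, against 9.28, 9.17, 9.11 and 9.01 in OT-d samples. Its groups did not overlap, but it was not called (log2 0.87, SE 0.56, adjusted p = 0.230), and it was called when only the 8 samples were fitted (log2 0.90, adjusted p = 3.93e-05). Among effectors, Chac1, which degrades glutathione, was at 14.31, 14.39, 14.33 and 14.24 in TO-d samples, against 12.84, 12.67, 12.18 and 12.47 in OT-d samples (log2 1.82, adjusted p = 1.09e-09). Gdf15, a secreted stress signal, was at 13.20, 13.25, 13.02 and 13.16 in TO-d samples, against 11.69, 11.76, 10.86 and 11.17 in OT-d samples (log2 1.71, adjusted p = 3.93e-10). Stc2, a secreted glycoprotein, was higher by 0.87 (adjusted p = 8.66e-08) and Cth, which makes cysteine, by 1.01 (adjusted p = 2.49e-08). Ndrg1 went the other way at 11.14, 11.12, 10.18 and 11.24 in TO-d samples, against 12.61, 13.08, 13.60 and 13.12 in OT-d samples (log2 -2.23, adjusted p = 5.28e-06), as did Map1lc3b, the autophagosome protein LC3B (log2 -0.48, adjusted p = 6.37e-04). Ndrg1 is also a hypoxia-response gene.

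The core of the amino acid response element, where Atf4 binds with C/EBP factors, was searched as TGATGNAA on both strands in the 250 bases before the start of each gene, in the RefSeq promoters of GRCm38.p6. Of 10972 tested genes with a promoter there, 2.16% held it, and of 18 effectors with a promoter 5 held it. Those of Chac1 and Asns are shown because both genes are textbook Atf4 targets that rose, with the match in capitals on the gene's strand, 5′ to 3′.
Chac1 (chr2:119351023-119351082, plus strand): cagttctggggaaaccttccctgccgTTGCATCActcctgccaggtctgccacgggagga
Asns (chr6:7693210-7693269, minus strand): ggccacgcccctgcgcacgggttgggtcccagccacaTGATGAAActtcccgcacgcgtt
A match is a description of these letters and does not show binding, and the 250 bases of Trib3, Sesn2 and Ddit3 held none.

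Genes that supply and charge amino acids were mostly higher. Of 25 synthesis enzymes 16 were higher and 6 lower (median 0.42), of 24 transporters 11 were higher and 3 lower (median 0.16, or 0.33 with the scanner's processed signal), and of 36 aminoacyl-tRNA synthetases 20 were higher and 2 lower (median 0.32). Phgdh, which opens the serine synthesis route, was at 14.97, 15.14, 15.35 and 15.04 in TO-d samples, against 13.60, 13.67, 13.69 and 13.70 in OT-d samples (log2 1.50, adjusted p = 3.40e-11). The next enzymes of that route, Psat1 and Psph, were higher by 1.01 (adjusted p = 1.07e-09) and 0.67 (adjusted p = 1.21e-04). Bcat1, a branched-chain aminotransferase, was higher by 1.22 (adjusted p = 4.31e-09) and Asns, asparagine synthetase, by 0.61 (adjusted p = 7.07e-04). Asl, argininosuccinate lyase, was at 14.18, 14.36, 14.27 and 14.43 in TO-d samples, against 15.04, 14.96, 15.31 and 15.25 in OT-d samples, lower in TO-d (log2 -0.86, adjusted p = 3.89e-06). Among transporters, Slc7a5, the large neutral amino acid carrier LAT1, was at 12.99, 13.36, 13.43 and 13.14 in TO-d samples, against 12.29, 12.36, 11.87 and 12.19 in OT-d samples (log2 1.09, adjusted p = 1.33e-07). Slc6a9, the glycine transporter GlyT1, rose by 1.04 (adjusted p = 7.52e-10) and Slc1a5, the glutamine carrier ASCT2, by 0.78 (adjusted p = 1.11e-08), while Slc7a3, an arginine carrier, was lower in TO-d at 7.57, 7.51, 7.72 and 7.41 in TO-d samples, against 8.91, 8.37, 8.64 and 8.30 in OT-d samples (adjusted p = 7.14e-07). Of the synthetases, Wars for tryptophan was at 12.86, 12.93, 12.93 and 13.04 in TO-d samples, against 11.49, 11.46, 11.20 and 11.35 in OT-d samples (log2 1.56, adjusted p = 3.31e-09), and Iars, Tars and Lars were higher by 0.91, 0.86 and 0.78 (adjusted p = 1.57e-09, 3.76e-08 and 2.39e-08). Aars, for alanine, was higher by 0.82 at its brightest probe, and its 5 probes gave 0.02 to 0.83.

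One-carbon metabolism, which moves single carbons from serine on folate to purines, thymidylate and methionine, had more genes higher than lower. Of 36 genes tested for folate, methionine and transsulfuration, 16 were higher and 6 lower (median 0.16), and 8 were higher with the local background as deposited. Aldh1l2, mitochondrial 10-formyltetrahydrofolate dehydrogenase, was at 10.46, 10.51, 10.70 and 10.59 in TO-d samples, against 8.72, 8.49, 8.52 and 8.73 in OT-d samples (log2 1.94, adjusted p = 3.76e-14). Mthfd2, the mitochondrial dehydrogenase, was at 11.51, 11.63, 11.38 and 11.57 in TO-d samples, against 10.29, 10.47, 10.29 and 10.42 in OT-d samples (log2 1.17, adjusted p = 2.03e-09), and the cytosolic Mthfd1 at 11.62, 11.67, 11.78 and 11.70 in TO-d samples, against 10.44, 10.58, 10.39 and 10.74 in OT-d samples (log2 1.18, adjusted p = 3.07e-09). The groups of all 3 were apart. Mthfd1l, the mitochondrial formate-releasing enzyme, was higher by 0.97 (adjusted p = 5.62e-09), and Shmt2, mitochondrial serine hydroxymethyltransferase, was not called (log2 0.14, interval 0.01 to 0.28, adjusted p = 0.0920). Folr1, a folate receptor, was lower (log2 -0.42, adjusted p = 1.39e-05), a call that ended under loess alone (log2 -0.28, adjusted p = 0.0639).

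Targets of Nrf2, the transcription factor of the oxidative stress response that Keap1 holds back, were mostly higher. Of 47 tested, 30 were higher and 6 lower, with 8 over 2-fold higher and a median of 0.37. Nqo1, a quinone reductase, was at 9.17, 9.23, 9.28 and 9.21 in TO-d samples, against 7.10, 7.12, 6.90 and 7.11 in OT-d samples (4.64-fold, adjusted p = 8.36e-16), with its probe at chr8:110277669-110277728 on mm8. Hmox1, haem oxygenase 1, was at 11.62, 11.67, 11.53 and 11.65 in TO-d samples, against 9.85, 10.09, 9.65 and 9.98 in OT-d samples (3.29-fold, adjusted p = 1.50e-12). Neither gene's groups overlapped, and the WT-d means of 8.17 ± 0.08 and 11.06 ± 0.10 lay between them. Srxn1, sulfiredoxin, was higher by 1.22 (adjusted p = 3.33e-07), Txnrd1, thioredoxin reductase, by 1.15 (adjusted p = 1.51e-10), Ephx1, an epoxide hydrolase, by 1.08 (adjusted p = 3.46e-06), and Gstm1, a glutathione transferase whose relatives are near-identical and may share its signal, by 1.05 (adjusted p = 6.68e-05). Gsr and Gclm, for glutathione reduction and synthesis, were higher by 0.71 (adjusted p = 7.93e-06) and 0.40 (adjusted p = 0.00196). Cbr3, a carbonyl reductase, was at 10.06, 10.12, 10.21 and 9.92 in TO-d samples, against 11.48, 11.40, 11.37 and 11.61 in OT-d samples, lower in TO-d (log2 -1.34, adjusted p = 1.50e-08). The regulator gene Keap1 was not called (log2 0.18, adjusted p = 0.0922), though it was when only the 8 samples were fitted (log2 0.22, adjusted p = 0.0119). The core of the antioxidant response element, TGACNNNGC on either strand, was in the 250-base promoters of 8 of 39 of these genes, against 11.9% of all tested genes with a promoter and 11 of 56 of the mitotic genes described below. Gclm held it, and Nqo1, Osgin1, Srxn1, Txnrd1, Gstm1, Ephx1, Cbr3 and Slc7a11 did not.

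The unfolded protein response, by which the endoplasmic reticulum (ER) adjusts its folding capacity, gave 22 higher and 7 lower of 47 tested, with a median of 0.26. Hspa5, the chaperone BiP, was at 15.33, 15.38, 15.05 and 15.38 in TO-d samples, against 14.80, 14.63, 14.64 and 14.76 in OT-d samples (log2 0.64, adjusted p = 2.01e-06). Hsp90b1, the chaperone GRP94, was at 16.02, 15.73, 15.57 and 16.04 in TO-d samples, against 14.97, 15.13, 15.10 and 15.22 in OT-d samples (log2 0.74, adjusted p = 8.05e-06). Each TO-d sample was above each OT-d sample in both chaperones. Atf6, 1 of the 3 ER stress sensors, was higher by 0.64 (adjusted p = 5.04e-05), while Ern1, which encodes the sensor IRE1, and its target Xbp1 were not called (log2 0.18 and 0.23, adjusted p = 0.0649 and 0.0692). Fitted on the 8 samples alone, both were called (log2 0.19, adjusted p = 0.0286 for Ern1; log2 0.27, adjusted p = 0.0256 for Xbp1). Sec61b, a subunit of the ER translocon, was lower (log2 -0.71, adjusted p = 5.75e-09), and so was Dnajc10, an ER reductase (log2 -0.92, adjusted p = 6.14e-09). The 4 probes of Dnajc10 gave -0.92 to -0.18. Sel1l, part of ER-associated degradation, was higher by 1.24 at its brightest probe, where its 3 probes gave 0.06 to 1.25. Of 36 heat shock and cytosolic chaperone genes, 13 were higher and 4 lower. Dnajb4 rose by 1.15 (adjusted p = 6.89e-10) and Ahsa1, the HSP90 co-chaperone, by 0.93 (adjusted p = 2.30e-07), while Bag1, an HSP70 co-chaperone, was lower (log2 -0.67, adjusted p = 2.98e-05).

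Interferon-stimulated genes, which cells switch on after interferon signals, were mostly higher. Of 46 tested, 28 were higher and 3 lower, with 13 over 2-fold higher and a median of 0.37. Isg15, a ubiquitin-like modifier, was at 10.56, 10.95, 10.93 and 10.88 in TO-d samples, against 8.97, 8.42, 7.88 and 8.31 in OT-d samples (5.24-fold, adjusted p = 2.90e-08). The file places its single probe on chromosome 17, whereas RefSeq has the gene on chromosome 4, so the probe may not read Isg15. Ifit1, which binds foreign RNA caps, was at 9.94, 9.91, 9.83 and 9.80 in TO-d samples, against 7.91, 7.59, 7.12 and 7.39 in OT-d samples (5.12-fold, adjusted p = 1.73e-07). Rsad2, the antiviral enzyme viperin, was at 10.02, 9.86, 9.76 and 9.79 in TO-d samples, against 7.81, 7.75, 7.73 and 7.74 in OT-d samples (4.11-fold, adjusted p = 3.28e-07). All 3 were low in OT-d, and WT-d averaged 10.43 ± 0.30, 9.19 ± 0.46 and 10.46 ± 0.03 in the same order. Rtp4, an interferon-induced chaperone of receptors, was 5.04-fold higher (adjusted p = 7.11e-10), Parp14 3.93-fold (adjusted p = 3.50e-10), Ifih1, the RNA sensor MDA5, 3.72-fold (adjusted p = 4.79e-12), and Lgals3bp 3.07-fold (adjusted p = 7.03e-12). Other probes of Parp14 and Ifih1 were dim, and averaging over probes gave log2 0.78 for Parp14 and 0.94 for Ifih1. Of the transcription factors of the response, Stat2, which carries the interferon signal to the nucleus, was lower (log2 -0.67, adjusted p = 1.79e-04), and so was Irf3, which starts the response (log2 -0.78, adjusted p = 6.71e-08).

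Genes of MHC class I, which presents peptides cut by the proteasome at the cell surface, gave 22 higher and 0 lower of 23 tested, with a median of 0.62. Relative to the OT-d mean, the list's median was 0.60, 0.76, 0.82 and 0.73 in TO-d samples. It was -0.05, -0.04, 0.04 and 0.13 in OT-d samples and 0.78, 0.54, 0.63 and 0.96 in WT-d samples. TO-d and WT-d thus both lay above OT-d. For proliferation medium the list's median difference, TO less OT, was 1.30. H2-M3, a class I heavy chain that presents formylated peptides, was at 10.69, 10.70, 10.57 and 10.46 in TO-d samples, against 8.35, 8.28, 8.13 and 8.05 in OT-d samples (5.27-fold, adjusted p = 3.65e-13), and its 2 probes gave 1.34 to 2.40. B2m, the shared light chain, was at 12.85, 12.79, 12.78 and 12.67 in TO-d samples, against 11.97, 12.07, 11.78 and 11.93 in OT-d samples (log2 0.88, adjusted p = 5.79e-08), and its 3 probes gave 0.38 to 0.88. The heavy chain H2-D1, which has near-identical relatives, was higher by 0.63 (adjusted p = 0.00229). Psmb8, Psmb9 and Psmb10, the catalytic subunits of the immunoproteasome, were higher by 0.75, 0.92 and 0.92 (adjusted p = 1.93e-07, 5.40e-05 and 5.29e-07), and Erap1, which trims the peptides, by 0.98 (adjusted p = 1.47e-08). By contrast, of 38 proteasome subunits tested, 6 were higher (15.8%) and 7 lower (18.4%), with a median of 0.04.

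The core of the interferon-stimulated response element, GAAA followed by any 2 bases and GAAA again on either strand, was in the 250-base promoters of 13 of 36 interferon-stimulated genes and of 2.58% of all tested genes with a promoter. Those of Ifit1, among the 15 largest increases, of Isg15, whose probe is uncertain, and of Rsad2 are shown, from RefSeq on GRCm38.p6, 5′ to 3′ on the gene's strand with the match in capitals.
Isg15 (chr4:156200850-156200909, minus strand): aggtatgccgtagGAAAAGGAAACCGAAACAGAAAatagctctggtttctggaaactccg
Ifit1 (chr19:34640779-34640838, plus strand): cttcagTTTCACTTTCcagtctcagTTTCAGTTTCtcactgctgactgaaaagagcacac
Rsad2 (chr12:26456538-26456597, minus strand): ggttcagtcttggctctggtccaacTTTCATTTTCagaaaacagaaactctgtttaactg
Of the class I genes, 3 of 18 with a promoter held these letters.

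Mitotic genes were lower in TO-d. Of 66 tested, 1 was higher and 53 lower, with 23 over 2-fold lower and a median of -0.68. Relative to the OT-d mean, the list's median was -0.76, -0.74, -0.67 and -0.59 in TO-d samples, -0.15, 0.07, -0.08 and 0.15 in OT-d samples and -0.94, -0.84, -0.89 and -0.12 in WT-d samples. The TO-d samples lay below the OT-d samples, and WT-d replicate 4 stood apart from the other WT-d samples. Mki67, the proliferation marker Ki-67, was at 7.68, 7.42, 7.91 and 7.45 in TO-d samples, against 9.01, 9.22, 9.10 and 9.14 in OT-d samples (log2 -1.52, adjusted p = 4.59e-07), and its 2 probes gave -1.52 to -0.85. Kif20a, a kinesin of cytokinesis, was at 7.99, 8.19, 8.55 and 7.69 in TO-d samples, against 9.75, 10.15, 9.84 and 10.06 in OT-d samples (log2 -1.78, adjusted p = 8.00e-09). Ncapg, a condensin subunit, was at 8.12, 8.17, 8.42 and 8.21 in TO-d samples, against 9.45, 9.66, 9.74 and 9.82 in OT-d samples (log2 -1.46, adjusted p = 1.45e-11), and its 2 probes gave -1.46 to -0.61. The groups did not overlap in these 3. Ccna2 and Ccnb1, the cyclins of S phase and of mitotic entry, were lower (log2 -1.50 and -1.36, adjusted p = 8.12e-07 and 3.57e-07), as were Birc5, survivin (log2 -1.40, adjusted p = 2.65e-08), and the centrosomal kinase Nek2 (log2 -1.35, adjusted p = 1.61e-09). Pttg1, securin, was lower with a wide spread (log2 -1.27, SE 0.48, adjusted p = 0.0391) and was the single gene past 2-fold whose sign turned within slide 3 (log2 0.08). The Pttg1 call ended without TO-d replicate 2 or 3 or OT-d replicate 1, 2 or 4, with adjusted p from 0.0708 to 0.117. The mitotic gene that was higher was Smc4, another condensin subunit (log2 0.41, adjusted p = 0.00189).

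The core of the cell cycle genes homology region, TTTGAA on either strand, was in the 250-base promoters of 19 of 56 mitotic genes and of 11.0% of all tested genes with a promoter. That of Ncapg is shown as an example among the 6 mitotic genes with the largest change, from RefSeq on GRCm38.p6, 5′ to 3′ on the gene's strand with the match in capitals.
Ncapg (chr5:45669865-45669924, plus strand): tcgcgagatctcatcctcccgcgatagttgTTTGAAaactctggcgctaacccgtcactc
The 250 bases of Birc5, Ccnb1 and Nek2, also named above as lower, held none. The letters are short and occur often, so a match is only a description.

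DNA replication and G1/S genes divided, with 12 higher (20.0%) and 18 lower (30.0%) of 60 and a median of -0.12. Without scaling between arrays 6 were lower and the median was 0.05, so the list has no settled direction. E2f1, a G1/S activator, was lower (log2 -0.73, adjusted p = 0.00101), while E2f3 rose by 0.75 (adjusted p = 4.37e-06), Gmnn, the licensing inhibitor geminin, by 0.65 (adjusted p = 1.69e-04) and Chaf1b, a histone chaperone, by 0.65 (adjusted p = 8.99e-05). Of 20 cyclin-dependent kinase inhibitors and D-type cyclins, 4 were higher (20.0%) and 9 lower (45.0%). Cdkn1a, the inhibitor p21, was at 9.87, 9.85, 9.68 and 9.88 in TO-d samples, against 8.49, 8.72, 8.40 and 8.58 in OT-d samples (log2 1.24, adjusted p = 1.52e-07), with the groups apart. Ccng2, an atypical cyclin, was lower (log2 -1.13, adjusted p = 3.53e-04), and Ccnd1, cyclin D1, was not called (log2 0.02, interval -0.19 to 0.23, adjusted p = 0.900). Of 45 p53 targets and apoptosis genes, 12 were higher (26.7%) and 9 lower (20.0%).

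**Figure D3:**
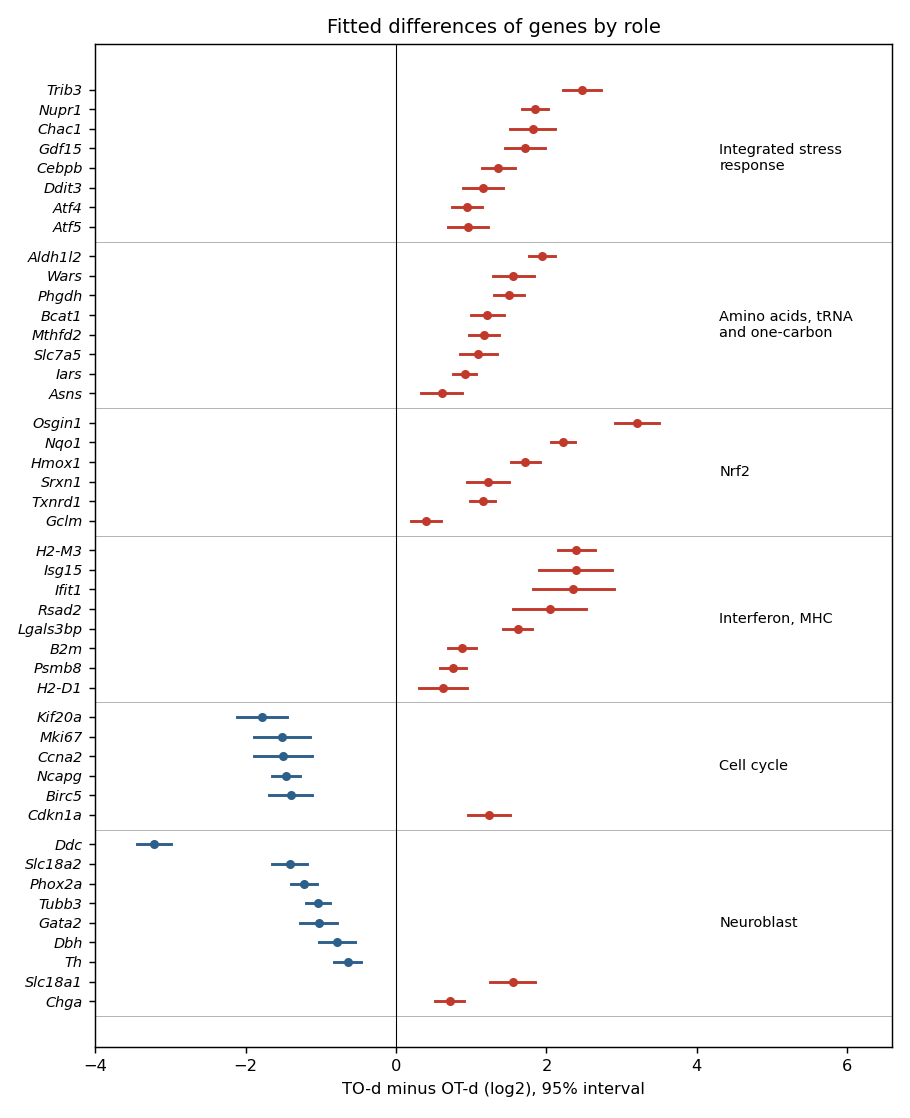
Fitted difference TO-d minus OT-d (log2) with its 95% interval for genes grouped by role, red where higher in TO-d and blue where lower. The genes drawn were picked from those named in the text. Of them, stress, amino acid, Nrf2 and interferon genes lie right of 0, and cell cycle genes left of it but for Cdkn1a. The neuroblast genes drawn lie left but for Slc18a1 and Chga. Members named in the text that went the other way, such as Ndrg1, Asl, Cbr3, Stat2 and Irf3, are not drawn.

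The sympathetic neuroblast markers were mostly lower. Of 17 tested, 1 was higher and 13 lower, with a median of -0.54. Relative to the OT-d mean, the list's median was -0.55, -0.33, -0.68 and -0.52 in TO-d samples. It was -0.10, 0.03, 0.02 and 0.09 in OT-d samples and -0.57, -0.60, -0.64 and -0.70 in WT-d samples. TO-d and WT-d thus both lay below OT-d. Among the sympathoadrenal transcription factors, 4 of 25 were higher and 11 lower, or 6 lower under loess alone. Phox2a, a homeobox factor of noradrenergic neurons, was at 11.64, 11.58, 11.43 and 11.64 in TO-d samples, against 12.58, 12.74, 13.01 and 12.89 in OT-d samples (log2 -1.22, adjusted p = 1.21e-10). Gata2 was at 10.86, 11.03, 10.85 and 10.76 in TO-d samples, against 11.94, 12.03, 11.95 and 12.01 in OT-d samples (log2 -1.03, adjusted p = 2.45e-07) and Gata3, of the same family, at 12.30, 12.27, 12.10 and 12.05 in TO-d samples, against 13.24, 13.16, 13.19 and 12.97 in OT-d samples (log2 -0.93, adjusted p = 1.42e-06). The groups did not overlap in these 3 factors. Mycn, the oncogene of neuroblastoma, was lower (log2 -0.57, adjusted p = 4.39e-04), and Isl1, a LIM homeobox factor, was not called (log2 0.03, interval -0.17 to 0.24, adjusted p = 0.825). Ets1, expressed in migrating neural crest, was higher (log2 1.05, adjusted p = 1.11e-08), and its 4 probes gave 0.26 to 1.05.

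Of 18 catecholamine genes, 1 was higher and 9 lower (median -0.34). Relative to the OT-d mean, the list's median was -0.38, -0.35, -0.47 and -0.27 in TO-d samples. It was -0.29, -0.39, -0.31 and -0.42 in WT-d samples. Th, tyrosine hydroxylase, which makes the dopamine precursor, was at 12.25, 12.37, 12.19 and 12.34 in TO-d samples, against 12.74, 12.84, 12.97 and 12.97 in OT-d samples (log2 -0.64, adjusted p = 3.35e-06). Dbh, which makes noradrenaline from dopamine, was at 12.31, 12.50, 12.18 and 12.55 in TO-d samples, against 12.95, 13.15, 13.31 and 13.32 in OT-d samples (log2 -0.78, adjusted p = 1.08e-05). With Ddc, the 3 enzymes that lead from tyrosine to noradrenaline were all lower in TO-d. The vesicular monoamine transporters went opposite ways. Slc18a2, VMAT2, was at 9.90, 9.89, 9.92 and 9.86 in TO-d samples, against 11.51, 11.17, 11.33 and 11.18 in OT-d samples (log2 -1.41, adjusted p = 1.23e-09), and Slc18a1, VMAT1, at 10.87, 10.84, 10.49 and 10.76 in TO-d samples, against 9.16, 9.25, 9.37 and 9.05 in OT-d samples (log2 1.55, adjusted p = 1.32e-08). The Slc18a1 difference shrank to 0.84 when its probes were averaged. Maoa, monoamine oxidase A, was lower (log2 -1.24, adjusted p = 5.42e-12).

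The neuronal cytoskeleton and growth cone list had 4 higher and 22 lower of 35 (median -0.38), with 14 lower under loess alone. Relative to the OT-d mean, its median was -0.31, -0.33, -0.40 and -0.35 in TO-d samples. It was -0.50, -0.29, -0.48 and -0.44 in WT-d samples. Besides Tubb3, Tubb2b, another neuronal beta-tubulin, was lower (log2 -1.22, adjusted p = 4.08e-04), as were Marcks, a growth cone substrate of protein kinase C (log2 -0.91, adjusted p = 1.17e-06), and Gap43, the growth-associated protein (log2 -0.57, adjusted p = 0.00118). Map1b, a microtubule-associated protein of growing axons, was at 13.72, 13.18, 12.99 and 13.58 in TO-d samples, against 12.95, 12.53, 12.25 and 12.33 in OT-d samples, higher in TO-d (log2 0.80, adjusted p = 0.00158). Of 42 synaptic vesicle and granule genes, 11 were higher (26.2%) and 13 lower (31.0%). The granins split: Chga, chromogranin A, was at 16.48, 16.64, 16.62 and 16.67 in TO-d samples, against 15.79, 15.80, 15.85 and 16.11 in OT-d samples (log2 0.71, adjusted p = 1.78e-06), while Scg2, secretogranin II, was at 13.16, 13.19, 13.29 and 13.24 in TO-d samples, against 13.85, 14.12, 14.17 and 14.31 in OT-d samples (log2 -0.95, adjusted p = 1.79e-08). Chga thus lay above and Scg2 below OT-d in every TO-d sample. Chgb, chromogranin B, was not called (log2 -0.45, SE 0.37, adjusted p = 0.369). Pcsk2, a prohormone convertase, and Pcsk1n, an inhibitor of its relative, were lower (log2 -0.78 and -0.81, adjusted p = 1.74e-06 and 4.03e-07), whereas Ptprn, a granule membrane protein, and Syt4, a synaptotagmin, were higher (log2 0.98 and 0.74, adjusted p = 9.66e-05 and 4.73e-05).

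Guidance and receptor genes changed in both directions. Of 50 axon guidance and neurotrophin receptor genes, 11 were higher and 18 lower (median -0.08), or 11 lower under loess alone. Ephb2, an ephrin receptor, was at 6.73, 6.66, 6.87 and 6.52 in TO-d samples, against 9.00, 8.91, 9.14 and 8.92 in OT-d samples (log2 -2.23, adjusted p = 8.80e-14), and the mean over its probes gave -1.26. Plxnd1, a semaphorin receptor, was lower (log2 -1.34, adjusted p = 2.86e-11), as was Epha7 (log2 -1.35, adjusted p = 5.21e-11). Ntrk3, the neurotrophin-3 receptor, was higher (log2 1.09, adjusted p = 6.23e-09), as were Ngfr, the p75 neurotrophin receptor, at 15.06, 15.06, 15.13 and 15.13 in TO-d samples, against 14.29, 14.23, 14.25 and 14.23 in OT-d samples (log2 0.88, adjusted p = 3.54e-08), and the netrin receptor Unc5b (log2 0.95, adjusted p = 1.16e-06). Of 34 receptors of peptides and amines, 7 were higher (20.6%) and 4 lower (11.8%). F2r, the thrombin receptor, rose by 1.37 (adjusted p = 1.06e-10) and Adora1, the A1 adenosine receptor, by 1.86 (adjusted p = 1.85e-09), where its 3 probes gave 0.43 to 1.87. Cnr1, the CB1 cannabinoid receptor, was lower (log2 -0.91, adjusted p = 4.70e-06). Of 45 ion channel genes, 9 were higher (20.0%) and 12 lower (26.7%), among them Kcnk3, a background potassium channel (log2 -0.86, adjusted p = 2.36e-09). Of 12 cholinergic genes, 3 were higher and 3 lower.

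Of 61 actin regulators, tropomyosins and thymosins, 10 were higher and 21 lower (median -0.12), with 11 lower under loess alone. Beside Tmsb4x and Tpm2, Pdlim4, a LIM protein of actin fibres, was lower (log2 -1.37, adjusted p = 2.19e-09), and Cnn2, a calponin, was at 9.35, 9.36, 9.30 and 9.48 in TO-d samples, against 7.97, 7.96, 8.06 and 8.01 in OT-d samples, higher in TO-d (log2 1.30, adjusted p = 1.91e-09). Of 55 matrix genes, 21 were higher and 12 lower. Fbln2, a fibulin, was at 13.37, 13.14, 13.15 and 13.36 in TO-d samples, against 12.01, 11.74, 11.67 and 11.33 in OT-d samples (log2 1.48, adjusted p = 2.21e-08), and Col4a1 and Col4a2, the paired basement membrane collagens, were higher by 1.07 and 0.74 (adjusted p = 6.22e-08 and 9.86e-06). Col16a1, a fibril-associated collagen, was lower (log2 -1.40, adjusted p = 4.33e-08). Of 30 integrins and cadherins, 10 were higher and 11 lower. Pcdh17, a protocadherin, was at 10.49, 10.17, 10.10 and 10.13 in TO-d samples, against 12.60, 12.29, 12.06 and 12.04 in OT-d samples (log2 -1.94, adjusted p = 4.79e-12), and Cdh22 was lower (log2 -1.35, adjusted p = 1.75e-11), while Itga9, an integrin subunit, was higher (log2 1.13, adjusted p = 5.47e-09).

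Of 68 genes of the Wnt, TGF-beta and BMP pathways, 20 were higher (29.4%) and 14 lower (20.6%). Skil, a repressor of TGF-beta signalling, was higher (log2 1.74, adjusted p = 3.27e-11), and its 2 probes gave 0.86 to 1.74. Tgfb2, a ligand, was higher (log2 1.09, adjusted p = 2.68e-08), and so was Wnt10a (log2 1.31, adjusted p = 3.46e-06), while Wnt11 was lower (log2 -1.03, adjusted p = 3.36e-07). Of 46 immediate early and ERK feedback genes, 15 were higher (32.6%) and 8 lower (17.4%). Egr1, an immediate early factor, was at 10.84, 10.75, 10.62 and 10.56 in TO-d samples, against 9.71, 9.49, 9.51 and 9.32 in OT-d samples (log2 1.23, adjusted p = 2.03e-05), and Dusp1, a MAP kinase phosphatase, was at 9.22, 9.34, 9.36 and 8.94 in TO-d samples, against 10.96, 10.97, 10.60 and 10.72 in OT-d samples (log2 -1.55, adjusted p = 6.21e-10). They moved apart, with no overlap between groups in either. Spry1, a feedback inhibitor of receptor tyrosine kinases, was lower (log2 -0.91, adjusted p = 8.15e-09).

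Of 46 glycolysis and hypoxia-response genes, 7 were higher (15.2%) and 16 lower (34.8%), with a median of -0.20. The shares over all genes tested were 19.0% and 20.9%. By sample, the list's median relative to the OT-d mean was -0.08, -0.14, -0.36 and -0.07 in TO-d samples. In OT-d samples it was -0.11, -0.02, 0.09 and 0.03, so the groups overlapped, and TO-d replicate 3 was the lowest. For proliferation medium the list's median difference, TO less OT, had the opposite sign at 0.38. Pdk1, a kinase that inhibits pyruvate dehydrogenase, was at 10.23, 9.98, 9.49 and 9.89 in TO-d samples, against 11.59, 11.59, 11.72 and 11.50 in OT-d samples (log2 -1.66, adjusted p = 2.57e-06). Ankrd37 and Kdm3a, both hypoxia targets, were lower (log2 -1.02 and -0.95, adjusted p = 0.00329 and 2.56e-06). The gene for the hypoxia factor itself, Hif1a, was at 10.44, 10.34, 10.52 and 10.40 in TO-d samples, against 9.68, 9.65, 9.72 and 9.64 in OT-d samples, higher in TO-d (log2 0.82, adjusted p = 4.92e-08). Of 56 RNA-binding proteins of mRNA stability, 9 were higher (16.1%) and 15 lower (26.8%). Among the neuronal relatives of Elavl1, Elavl2 was higher (log2 1.03, adjusted p = 4.63e-09) and Elavl3 lower (log2 -0.44, adjusted p = 3.58e-05). Cirbp, a cold-induced RNA-binding protein, was lower (log2 -1.14, adjusted p = 1.72e-07), as was Rbfox3, the neuronal nuclear antigen NeuN (log2 -1.36, adjusted p = 1.53e-11), while Ptbp2, the neuronal polypyrimidine tract protein, was higher (log2 1.12, adjusted p = 1.43e-09). Igf2bp3, an oncofetal mRNA-binding protein, was lower by its brightest probe (log2 -2.25, adjusted p = 1.84e-15), where its 3 probes gave -2.25 to -0.83, and the brightest gave -4.72 with the processed signal. Of 60 ribosome biogenesis genes, 25 were higher and 3 lower (median 0.19), with 15 higher when the local background was taken as deposited. Nop2, a nucleolar methyltransferase, was among them (log2 0.67, adjusted p = 1.37e-04). Of 78 cytosolic ribosomal protein genes, 4 were higher and 15 lower, a split that moved to 1 and 27 with the scanner's processed signal, 5 and 7 under loess alone and 2 and 3 with the local background as deposited.

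All 5 Magea genes tested, X-linked antigens of germ cells and tumours, were lower, with a median of -2.12, or -3.02 with the scanner's processed signal. Magea8 was at 6.92, 7.10, 7.40 and 7.19 in TO-d samples, against 9.52, 9.54, 9.44 and 9.56 in OT-d samples (log2 -2.30, adjusted p = 8.68e-15; log2 -3.09 with the processed signal), and Magea3 at 7.25, 7.58, 7.80 and 7.58 in TO-d samples, against 9.52, 9.56, 9.74 and 9.92 in OT-d samples (log2 -2.14, adjusted p = 4.72e-14). WT-d averaged 8.93 ± 0.11 and 9.07 ± 0.09, above TO-d. The Magea genes are near-identical copies, so their probes may read each other's transcripts and the 5 values are not independent.

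The remaining lists had changes both ways. Of 76 oxidative phosphorylation subunits 11 were higher and 21 lower, of 76 lysosome and autophagy genes 15 and 22, of 36 cholesterol genes 5 and 9, of 49 fatty acid and lipid genes 12 and 10, of 48 translation factors 10 and 7, and of 58 splicing factors 5 and 11. Under loess alone these splits were 13 higher and 11 lower for oxidative phosphorylation, 16 and 10 for lysosome and autophagy, 6 and 5 for cholesterol, 12 and 3 for fatty acids and lipids, 12 and 5 for translation factors and 7 and 2 for splicing factors, so the oxidative phosphorylation, lysosome, cholesterol and splicing lists have no settled direction. In lists described above, that setting gave 12 higher and 4 lower p53 targets and apoptosis genes, 4 and 5 cyclin-dependent kinase inhibitors and D-type cyclins, 21 and 7 Wnt, TGF-beta and BMP genes, and 15 and 4 immediate early and feedback genes. It gave 6 and 1 proteasome subunits, 11 and 9 RNA-binding proteins of mRNA stability, 2 and 2 DNA and histone methylation enzymes, 14 and 3 amino acid synthesis enzymes, 17 and 0 folate, methionine and transsulfuration genes, 14 and 1 heat shock and cytosolic chaperone genes, and 3 and 1 cholinergic genes. Of the marker lists of other cell types, glia had 2 higher and 3 lower of 9, blood and endothelium 2 and 1 of 6, and fibroblast and smooth muscle 3 and 2 of 9.

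**Figure D4:**
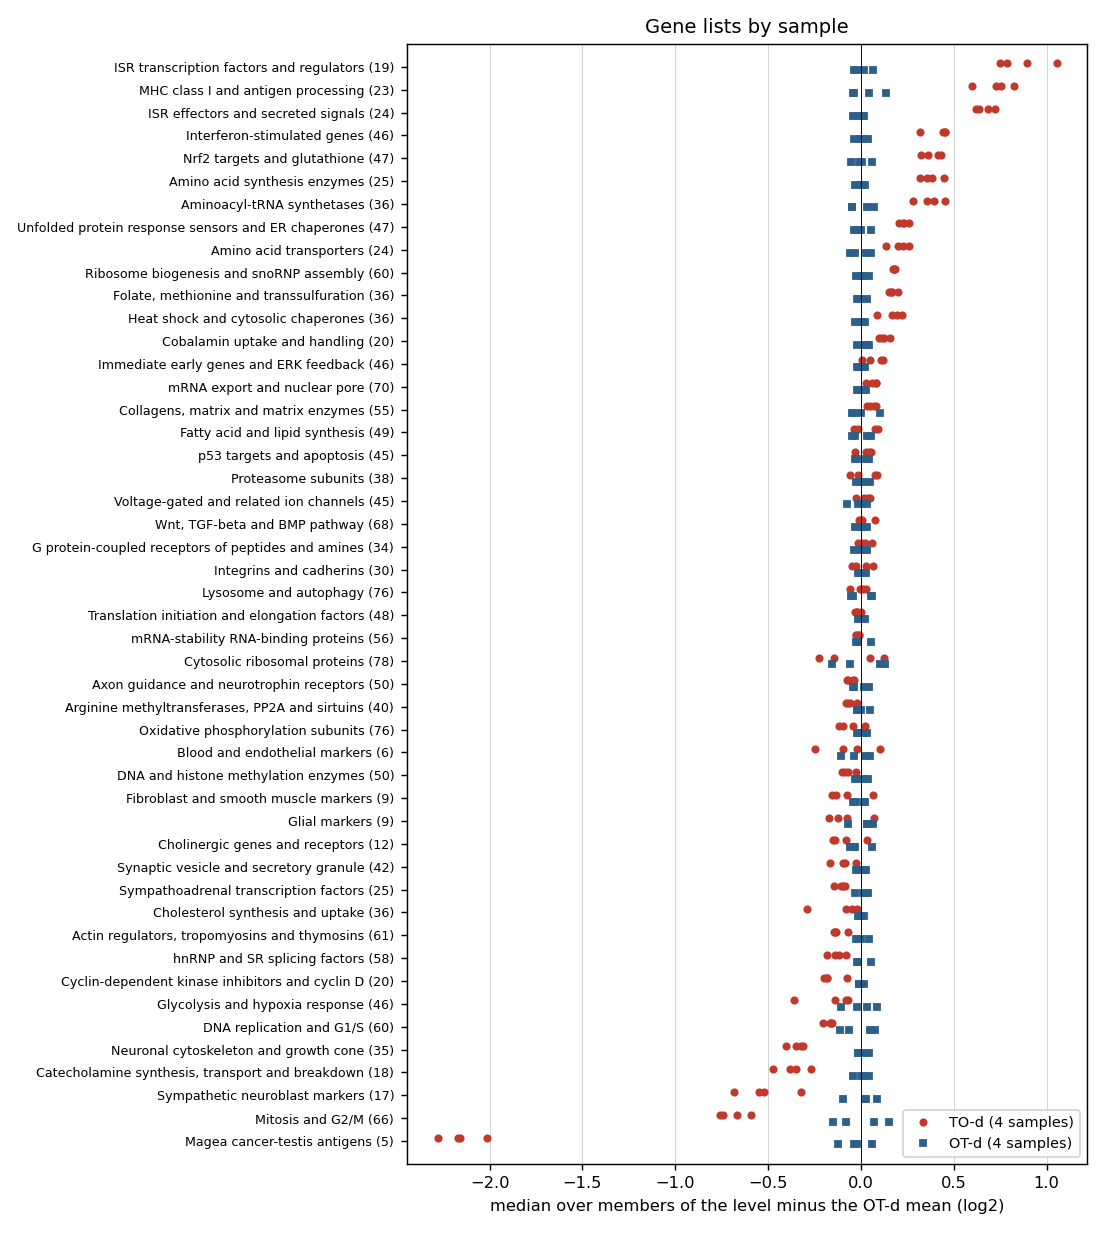
Median over the members of each gene list of the level minus the OT-d mean of the gene (log2), in the 4 TO-d samples (red circles) and the 4 OT-d samples (blue squares), with the number of genes tested in brackets. Integrated stress response factors (0.75 to 1.05 in TO-d) lie at the top and Magea genes at the bottom; for most lists the 4 TO-d samples lie close together.

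The calls were unevenly spread over the chromosomes, taken from the probe positions on mm8. On chromosome 13, 49.7% of 572 genes were higher and 7.17% lower, with a median of 0.24. Relative to the OT-d mean, the chromosome's median was 0.26, 0.26, 0.20 and 0.22 in the TO-d samples, 0.02, 0.00, 0.00 and -0.01 in the OT-d samples and 0.19, 0.18, 0.17 and 0.15 in the WT-d samples. TO-d and WT-d were thus both above OT-d there in every sample. On chromosome X, 7.98% of 514 genes were higher and 42.4% lower (median -0.19), and on chromosome 5, 7.11% of 1013 were higher and 35.9% lower (median -0.14). The X median was -0.20, -0.17, -0.19 and -0.22 in TO-d samples and -0.19, -0.15, -0.19 and -0.15 in WT-d samples. On chromosome 5 the WT-d medians, -0.05, -0.03, -0.06 and -0.04, lay nearer to OT-d than the TO-d medians of -0.16, -0.13, -0.15 and -0.17. Chromosomes 12, 16 and 1 had 32.9%, 31.6% and 30.6% higher, and chromosome 10 29.5% lower. Past 2-fold, chromosome 3, with 749 of the 16242 genes tested, held 34 of the 267 increases, Dpyd, Znhit6 and Mrps28 among them. Over all genes tested, 1.64% were over 2-fold higher. As a whole, chromosome 3 had 17.5% of its genes higher and 25.5% lower, with a median of -0.06. Neighbouring genes are not independent of each other, so these shares carry no test. DNA copy number was not measured here, and its part was not tested.

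**Figure D5:**
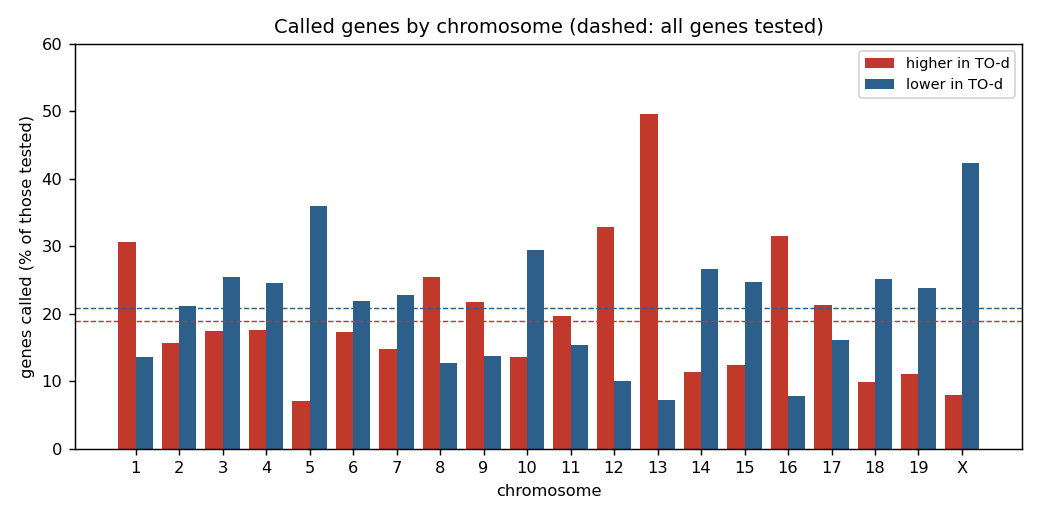
Share of the genes tested on each chromosome that were higher (red) or lower (blue) in TO-d than in OT-d, in percent; dashed lines give the shares over all genes tested, 19.0% and 20.9%. Chromosome 13 stands highest for increases (49.7%) and X for decreases (42.4%).

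Some of these differences also differed between media. By a test with all 24 samples, the signed difference TO minus OT was higher in differentiation than in proliferation medium in 2803 genes (17.3%). It was lower in 3677 (22.6%). The counts go by sign and not by size, so genes whose gap grew on the negative side, such as Tmem130, are among the 3677. Osgin1 averaged 8.10 in TO-p samples against 7.86 in OT-p samples, so its log2 difference was 0.25 in proliferation medium and larger by 2.96 in differentiation medium (adjusted p = 4.46e-10). Rtp4 averaged 9.00 in TO-p samples against 8.65 in OT-p samples, a difference larger by 2.03 in differentiation medium (adjusted p = 1.28e-06). Tmem130 averaged 6.62 in TO-p samples against 6.92 in OT-p samples, where the change of the difference was -4.10 (adjusted p = 3.70e-10). Agtr2 averaged 6.97 in TO-p samples against 6.64 in OT-p samples (change -3.74, adjusted p = 5.92e-06) and Ccdc184 7.68 in TO-p samples against 6.92 in OT-p samples (change -3.35, adjusted p = 3.88e-09). TO-p and OT-p were thus both low in Tmem130, Agtr2 and Ccdc184, and the highest of the 4 means was that of OT-d. Dpyd averaged 11.39 in TO-p samples against 7.41 in OT-p samples, so its difference was present in both media and smaller in differentiation medium (change -0.92, adjusted p = 1.58e-04).

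Differences were also taken within a slide and dye. Of the 518 genes past 2-fold, 518 kept their sign within slide 2 in Cy5 (TO-d replicate 2 against OT-d replicates 1 and 2), and 517 within slide 3 in Cy3 (TO-d replicate 4 against OT-d replicates 3 and 4). These samples were part of the fit that chose the 518 genes, and each set holds 1 TO-d sample, so the counts are a description and no independent check. The labels number TO-d replicates 1 and 4 as 11 and 11b and OT-d replicates 2 and 4 as 18 and 18b, and do not say whether such pairs share an RNA. The log2 difference between paired samples had an SD of 0.203 over genes for TO-d and 0.200 for OT-d, while the closest TO-d pair, on 1 array, had 0.151 and the closest OT-d pair 0.196. Averaging each such pair to 1 sample left 2821 genes higher and 3272 lower. Where a gene had several probes the brightest stood for it, and taking the mean over probes moved 16 of the 205 genes read out here by over 1.5-fold. Besides Gpm6b, Parp14, Ifih1, Slc18a1, Ephb2 and Tafa1, Kif21b then differed by 1.03, Osgin1 by 2.10, Rsad2 by 1.38, Nrp2 by 0.71, Dhx58 by 0.78, Pcdh17 by -1.18, Pdlim4 by -0.72, Col16a1 by -0.73, Vwf by -0.97 and Ptbp2 by 1.74. The scanner's processed signal widened the differences of some dim genes by over 1.5-fold beside those already given, to 2.95 in Nqo1, 3.28 in Niban1, 3.61 in Ifih1 and 1.79 in Itga9. Among lower genes it gave -3.50 in Ephb2, -4.64 in Samsn1, -5.53 in Arhgap25, -6.20 in Tmem130, -6.29 in Pnrc2, -2.27 in Rbfox3, -2.12 in Ccnb1, -2.10 in Nek2 and -1.96 in Pdlim4.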

How the data were processed

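Scanner output came from Agilent Feature Extraction, version 10.5.1.1 per the file headers, with raw intensities per spot and dye, deposited by the authors without normalization and beside a background-subtracted, dye-normalized processed signal. The deposited series table holds intensity per sample, above 0 and not logged, whose scaling is not given in the sources used here. Probe positions are on mm8, per the file headers.

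Mean signals were corrected with normexp (offset 50, local background median) with limma 3.58.1, under R 4.3.3 with the statmod package at 1.5.0. Local backgrounds over 3 times the channel median were replaced by that median and the 192 values left out, 13 of them in TO-d or OT-d, a choice made after seeing the data. After removal of 1639 control spots, loess and Aquantile normalization gave log2 intensities per dye. Outlier-marked values (0.307%) were left out and no spot was saturated. Among 27591 gene names, 8951 were read by more than 1 probe, and the brightest on average was used. A gene was tested if some group had all 4 of its samples well above background, which held for 16242 genes, and 13796 had a RefSeq symbol. The file's name was kept for the rest.

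The 24 samples were fitted with 6 group means, a dye term and the array as a block (correlation 0.431, 17 residual and 5.13 prior degrees of freedom), by lmFit in place of the planned lmscFit, which cannot take missing values, then eBayes and Benjamini-Hochberg adjustment over all genes, two-sided. The fit was tested on simulated data with known changes.

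The comparison, the 48 gene lists and the rules were chosen with earlier results of these data known. Genes were named by rule. Taken per direction were the 15 largest changes and the 8 brightest past 2-fold, both without overlap between the groups. Added were up to 6 members per list and up to 5 genes per direction dim in all samples of a group. A fixed set around cobalamin was named as well, and the text prints fewer. Motifs were searched in the first listed RefSeq promoter of each gene (GRCm38.p6).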

Additional observations from a re-analysis of the deposited data

Results flagged for a closer look

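Samples that stood apart from the rest of their group were looked for in 410 groups of 4 samples of the genes read out, and 19 were found by Dixon's gap ratio, which is about the 1 in 20 that chance gives. Replicate 3 of TO-d stood apart in Hspa5 (gap ratio 0.844), Ndrg1 (0.890), Cdkn1a (0.863), Ccnd1 (0.896), Col16a1 (0.865), Wnt10a (0.920) and Ankrd37 (0.937). Replicate 4 of TO-d stood apart in Stc2 (0.839), Ephx1 (0.907) and Ifih1 (0.881). Replicate 3 of OT-d stood apart in Map1lc3b (0.857), Nqo1 (0.878), Gsr (0.866), Psmb8 (0.970), Chgb (0.848) and Col4a2 (0.934). Replicate 1 of OT-d stood apart in Bnip3 (0.876) and Sel1l (0.850), and replicate 2 of OT-d in Nos1 (0.953).

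Among the 30 genes with the largest changes, the difference TO minus OT was tested between media, and 19 differed. Over all genes tested, it was higher in differentiation medium in 17.3% and lower in 22.6%. The 30 genes were chosen by their difference in differentiation medium, which is part of that test, so the 19 are only a description. It was larger in differentiation than in proliferation medium by log2 2.96 in Osgin1, 1.56 in Kif21b, 0.98 in Trib3, 1.06 in Ifit1, 2.03 in Rtp4 and 0.43 in Ptpn18. The change, differentiation less proliferation, was -0.92 in Dpyd and -0.92 in Pcolce, both higher in TO than in OT in either medium. Among genes lower in TO-d it was -4.10 in Tmem130, -3.74 in Agtr2, -3.35 in Ccdc184, -2.63 in Tafa1, -2.08 in Tmsb4x, -2.08 in 4930511A02Rik, -1.25 in Tpm2, -1.10 in Izumo3, -0.93 in Ssbp4, -0.72 in Ddc and -0.70 in Wnt2.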

How the results depend on the processing

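The counts of 3082 genes higher and 3395 lower in TO-d, and of 267 and 251 past 2-fold, stayed within 1.5 times under the alternatives run except in 4 cases: with the scanner's processed signal 558 genes were over 2-fold higher and 725 over 2-fold lower, with a normexp offset of 10 387 were over 2-fold lower, and with loess alone 1662 were lower. The cause was not tested. Leaving out a replicate gave 2534 to 2973 genes higher, 2675 to 3299 lower, 264 to 283 over 2-fold higher and 227 to 275 over 2-fold lower. With the replicate number as a block, which takes the place of the dye term, 3054 were higher and 3398 lower, and no call of a gene read out here changed. Same-numbered samples deviated together with correlations of 0.344, 0.0836, 0.154 and 0.263, so the numbers were not taken to pair the samples. Under loess alone the count of lower members moved by over 1.5 times in 29 of 48 gene lists. The sign of Pttg1 turned within slide 3 to 0.0811. The 3 alternatives chosen after seeing the data were the local background as deposited (2248 higher, 2826 lower), the differences within a slide and dye, and the chromosome of the RefSeq table, by which chromosome 13 had 54.3% higher and X 44.0% lower. Fitted alone, the 8 samples left 5 residual degrees of freedom. Signal over background limits the folds of dim genes: 26 of 205 genes moved by over 1.5-fold with the processed signal and 16 with the offset of 10.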
